A study of Mus musculus with 11 samples.

Results

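The genes described are the nuclear-encoded genes of oxidative phosphorylation in mouse colon macrophages. Members were found by matching symbols: Nduf genes with an a, ab, b, c, s or v subunit letter, Sdha to Sdhd, the Uqcr genes, Cox4 to Cox8 genes, Atp5 genes, Cyc1 and Cycs. The rule found 87 of the 23282 entries counted in each of 11 libraries. By complex these are 38 complex I genes, 4 complex II genes, 9 complex III genes, 18 complex IV genes, 17 ATP synthase genes and Cycs, which encodes the electron carrier cytochrome c. Ndufa4, now assigned to complex IV, is counted with complex I by its symbol. The rule also takes in 4 genes that are not standard subunits, namely Atp5s, Atp5sl, Cox7a2l and Ndufa4l2.

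RNA of colon cells that the labels describe as CD45+CD11b+Ly6G-Ly6C-MHCII+CD64+ was sequenced from wild type (WT) mice and from mice labelled Csf1r-EP4-/- (KO). EP4, encoded by Ptger4, is a receptor for prostaglandin E2, and Csf1r is a gene of the macrophage lineage; how the deletion was made and how many mice gave each library are not given in the sources used here. All groups come from an experiment with 2.5% dextran sodium sulfate (DSS) in the drinking water for 5 days, which injures the colon lining, and the titles give day 0 or day 39 of it. There were 3 libraries from KO and 2 from WT at day 0, and 3 from each genotype at day 39. Nothing says that the libraries of a group came from separate mice, so a p-value measures only the spread between these libraries.

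Oxidative phosphorylation makes most of the ATP of a resting cell. Complexes I and II feed electrons from NADH and succinate into the inner mitochondrial membrane, complex III passes them to cytochrome c, complex IV hands them to oxygen, and ATP synthase uses the proton gradient that complexes I, III and IV build. In macrophages the balance between this route and glycolysis is known to shift with activation, and macrophages in repair or resting states lean on it more than macrophages under strong inflammatory stimulation.

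Library totals ran from 4003299 to 14207919 counts with a median of 4867194, and the deepest library was KO day 0 replicate 3. Macrophage markers were present in every library (11 to 14 of 15 above 3 counts, summed level 6605 to 28082 CPM, counts scaled to a common library size), with Mertk at 0 throughout. Genes of 3 surface markers in the label were not counted everywhere, which as RNA goes against the label there. Fcgr1 (CD64) was at 0 in 4 libraries and at 1 in another. Ptprc (CD45) was at 0 to 8 counts in 5 libraries. Itgam (CD11b) had 0 counts in KO day 0 replicate 3 and 1 in WT day 39 replicate 3. It had 3 and 4 counts in KO day 39 replicates 1 and 3. Skeletal muscle markers were above 3 counts in 10 to 16 of 19 per library, with Tnnt1 and Tnnc1 at 0 throughout. Their summed level was 26542 CPM in KO day 0 replicate 2, 24922 CPM in KO day 0 replicate 3 and 19224 CPM in WT day 39 replicate 2, and 2777 to 10067 CPM in the other 8 libraries. Smooth muscle and stroma markers were above 3 counts in 5 to 10 of 12 per library. They summed to 18508 and 21068 CPM in KO day 0 replicates 2 and 3 and to 16560 CPM in WT day 0 replicate 2. The other libraries summed to 3037 to 11208 CPM. In KO day 0 replicate 2, Col1a1 had 71497 counts and Col1a2 45868, while Myh11, Tagln, Actg2 and Cnn1 were at 0. Acta2 had 1 to 223 counts at day 0 and 420 to 2665 at day 39. Epithelial markers summed to 74.7 to 1776 CPM at day 0 (3 to 7 of 15 above 3 counts, Krt18, Lgals4 and Slc26a3 at 0 in all 5 libraries) and 1858 to 11569 CPM at day 39 (8 to 13 of 15 above 3 counts, none of those 3 at 0 in all 6). In bulk samples, fewer cells of a type and less RNA per cell cannot be told apart. Ptger4 had 1350, 0 and 890 counts (KO day 0), 0 and 0 (WT day 0), 1, 8 and 4501 (KO day 39) and 1481, 152 and 7286 (WT day 39). At day 0 Ptger4 was thus counted in KO replicates 1 and 3 and at 0 in both WT libraries, the reverse of what the genotype labels would give. Reads come from the 3′ end of transcripts and the deleted part of the gene is not given, so a count there does not check the deletion, and KO and WT stand for libraries labelled so in every comparison.

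Promoters of 3 members are shown: Atp5g3 has the smallest edgeR p-value among the members between the days, though it was not called, and Cox8a and Cox8b are the broad and the tissue-restricted form of the same complex IV subunit, counted in all libraries and in 1 library. The sequences are RefSeq promoters of build GRCm38.p6, 250 bases before to 50 bases after the start of the gene. Atp5g3 lies at chr2:73911277-73911576, Cox8a at chr19:7217567-7217866 and Cox8b at chr7:140900397-140900696, each on the minus strand, and each run ends 50 bases into the gene. Capitals mark matches, on either strand, to the ETS core CCGGAAG (the core bound by GABPA) and to the CCAAT box.
Atp5g3: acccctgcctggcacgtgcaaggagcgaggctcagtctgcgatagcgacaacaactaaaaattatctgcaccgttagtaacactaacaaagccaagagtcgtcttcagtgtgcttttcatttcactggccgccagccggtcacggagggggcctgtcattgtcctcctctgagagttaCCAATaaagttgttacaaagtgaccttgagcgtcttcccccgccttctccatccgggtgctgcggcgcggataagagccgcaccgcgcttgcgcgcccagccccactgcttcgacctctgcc
Cox8a: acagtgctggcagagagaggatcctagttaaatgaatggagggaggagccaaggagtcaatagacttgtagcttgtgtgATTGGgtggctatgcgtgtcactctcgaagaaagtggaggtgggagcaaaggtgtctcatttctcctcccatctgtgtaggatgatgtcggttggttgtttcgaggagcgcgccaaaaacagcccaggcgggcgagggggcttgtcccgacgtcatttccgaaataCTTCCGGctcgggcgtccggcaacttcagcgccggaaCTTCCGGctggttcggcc
Cox8b: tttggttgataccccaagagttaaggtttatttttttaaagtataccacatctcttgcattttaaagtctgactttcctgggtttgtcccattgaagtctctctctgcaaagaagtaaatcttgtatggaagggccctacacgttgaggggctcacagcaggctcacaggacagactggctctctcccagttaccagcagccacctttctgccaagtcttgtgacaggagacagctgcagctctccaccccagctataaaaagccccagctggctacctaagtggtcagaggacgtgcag
The Cox8a promoter held 2 matches to the ETS core and 1 CCAAT match, the Atp5g3 promoter held 1 CCAAT match, and the Cox8b promoter held none of the letters searched. Of the members, 68 had a promoter in the RefSeq table, 73 promoters in all. The NRF1 core GCATGCGC was in 15.1% of these and in 2.71% of all 32851 promoters, the ETS core in 21.9% and 8.86%, and CCAAT in 42.5% and 37.4%; both strands were searched, none of the 3 motifs contains another, and a match is a description, not a binding site.

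The members were counted in an uneven way. Of the 87 genes, 84 had a count in any library, and Atp5s, Cox7b2 and Cox8c had none. Of the 924 values of those 84 genes in 11 libraries, 381 (41.2%) were at 10 counts or fewer, 207 of them at 0, 486 (52.6%) were at 100 counts or more, and 57 (6.17%) lay between. A gene was therefore mostly either clearly counted or nearly absent in a library, often within the same group. This holds for the tested genes as a whole, where 4.69% of values lay between, against 6.48% for the 80 members that passed the filter on low counts. Among these 80 members, 38.6% of values were at 10 counts or fewer, against 59.1% over all 6987 genes tested. Pairs of libraries of the same group shared 33.3% to 56.3% of the members that either of them counted at 100 or more (median 48.3%, 10 pairs), and over all tested genes they shared 25.6% to 36.3% (median 33.3%).

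**Figure D1:**
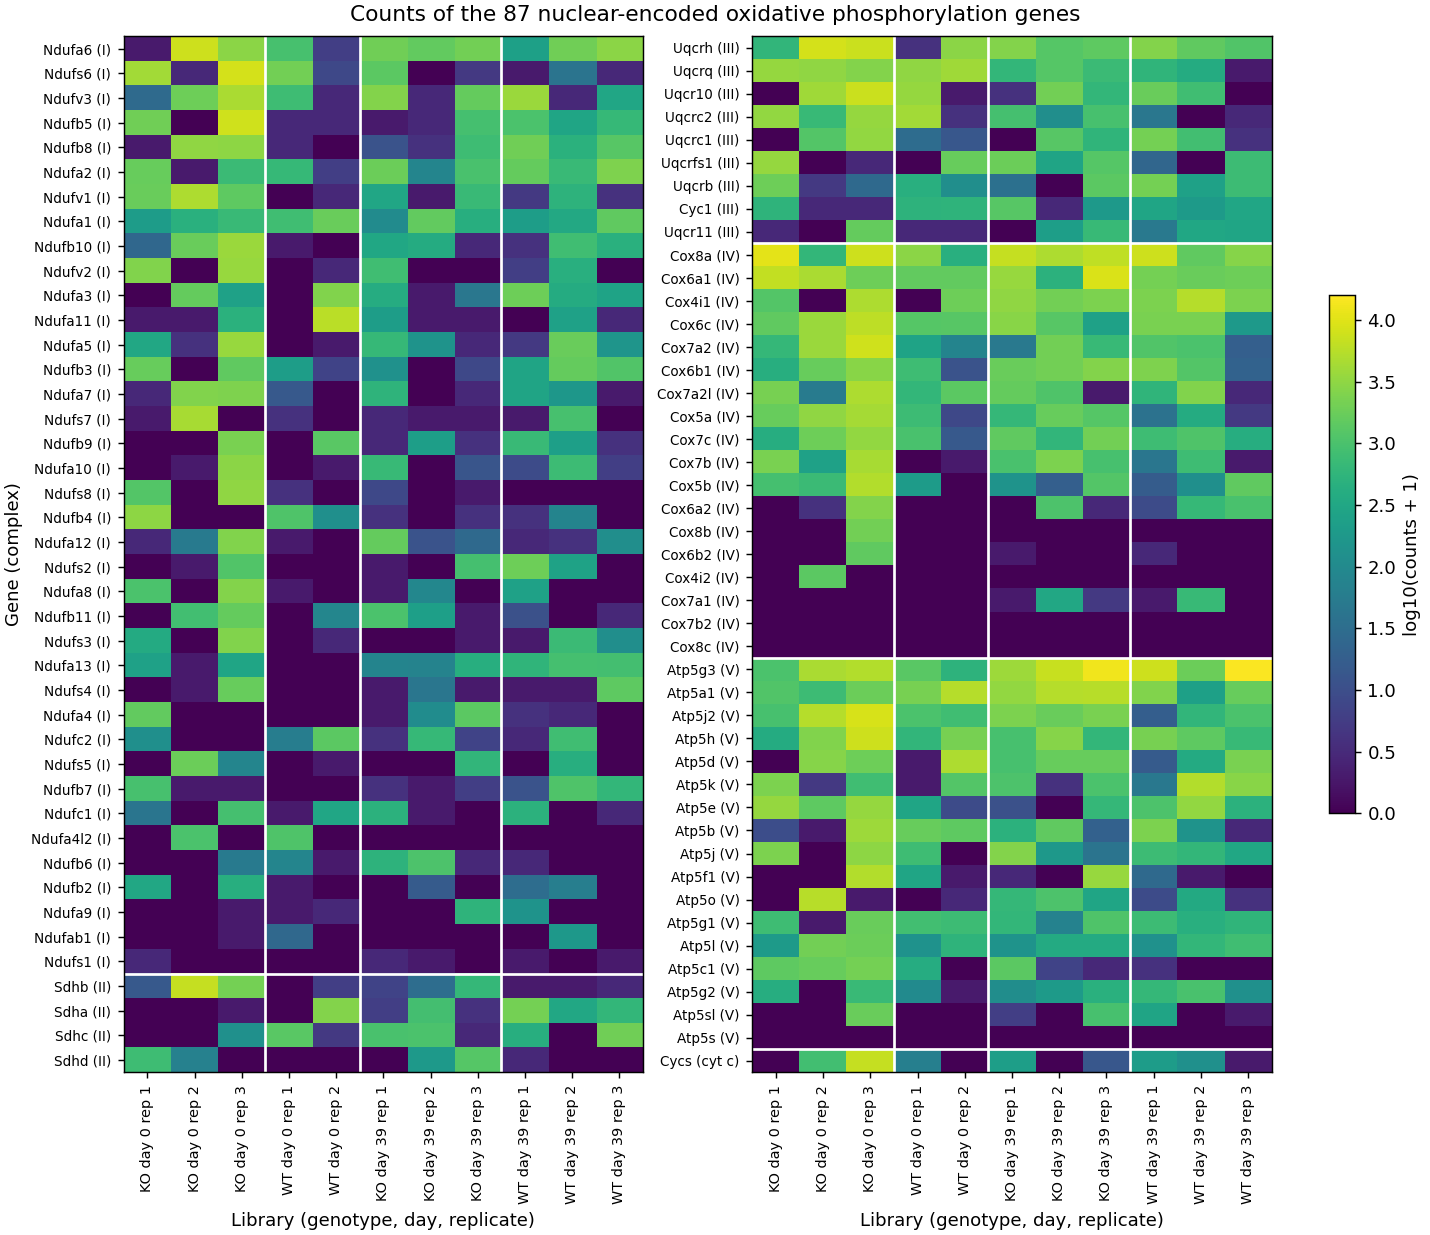
Counts of all 87 genes (rows, ordered by complex, with the complex in brackets) in the 11 libraries (columns), as log10(counts + 1) without scaling for depth. Yellow cells of high counts stand beside dark cells at 0 in the same row and the same group, most often in the complex I panel.

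**Figure D2:**
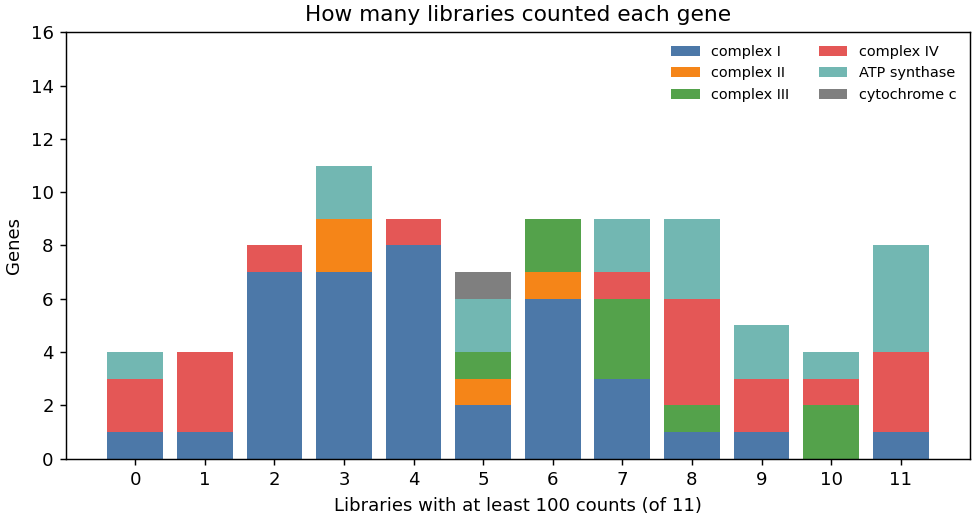
Number of genes (y axis) by the number of libraries in which they had at least 100 counts (x axis, 0 to 11), coloured by complex. 8 genes reached 100 counts in all 11 libraries and 4 reached it in none, and the complex I genes lie mostly at 2 to 6 libraries.

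The typical member reached 100 counts in 6 of the 11 libraries, and the complexes differed. Complex I genes did so in a median of 4 libraries, complex II genes in 4, complex III genes in 7, and complex IV and ATP synthase genes in 8. Above 3 counts in all 11 libraries were 13 of 80 tested members (16.3%, against 6.60% of all tested genes): Ndufa1 of complex I, Cox5a, Cox6a1, Cox6b1, Cox6c, Cox7a2, Cox7c and Cox8a of complex IV, and Atp5a1, Atp5g3, Atp5h, Atp5j2 and Atp5l of ATP synthase. Of these, 8 stayed at 100 counts or more in all 11 libraries.

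Members at 100 counts or more numbered 46, 38 and 65 (KO day 0), 35 and 27 (WT day 0), 48, 41 and 46 (KO day 39), and 42, 58 and 40 (WT day 39). Both WT day 0 libraries were below every other library, and so they were over all 6987 tested genes, of which 31.7% and 24.9% reached 100 counts there against 33.9% to 52.3% in the other 9. The low number in WT day 0 is therefore shared with the tested genes as a whole. In the same order the means were 49.7 ± 13.9 (SD, n = 3), 31.0 ± 5.66 (SD, n = 2), 45.0 ± 3.61 (SD, n = 3) and 46.7 ± 9.87 (SD, n = 3). In WT day 0, 35 members were at 10 counts or fewer in both libraries, 21 of them in complex I. The totals of the WT day 0 libraries, 4325880 and 5126194, lie within the range of the day 39 libraries, 4003299 to 5000994, or just above it. With counts scaled down to the smallest library total the WT day 0 mean was 29.5 and the other groups' means were 43.7 to 48.3.

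Summed over all members, the level was 12828, 13624 and 13815 CPM (KO day 0), 7139 and 11684 CPM (WT day 0), 16971, 11180.5 and 22737 CPM (KO day 39), and 19901, 10404 and 12252 CPM (WT day 39). The 3 KO day 0 libraries were close to each other and the groups at day 39 were spread over a wide range that overlaps them. The epithelial markers of the day 39 libraries summed to 5431, 4188 and 11569 CPM (KO) and 7399, 2914 and 1858 CPM (WT). The 3 day 39 libraries highest in members, KO replicates 3 and 1 and WT replicate 1, were also the 3 highest in these markers, while WT replicate 3, lowest in the markers, had more member CPM than KO replicate 2 and WT replicate 2. The part of epithelial RNA in the members' level was not tested. The means were 13422 ± 523 (SD, n = 3), 9412 ± 3214 (SD, n = 2), 16963 ± 5778 (SD, n = 3) and 14186 ± 5035 (SD, n = 3) in the same order. The members made up 0.924% to 1.68% of all counts of a library.

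**Figure D3:**
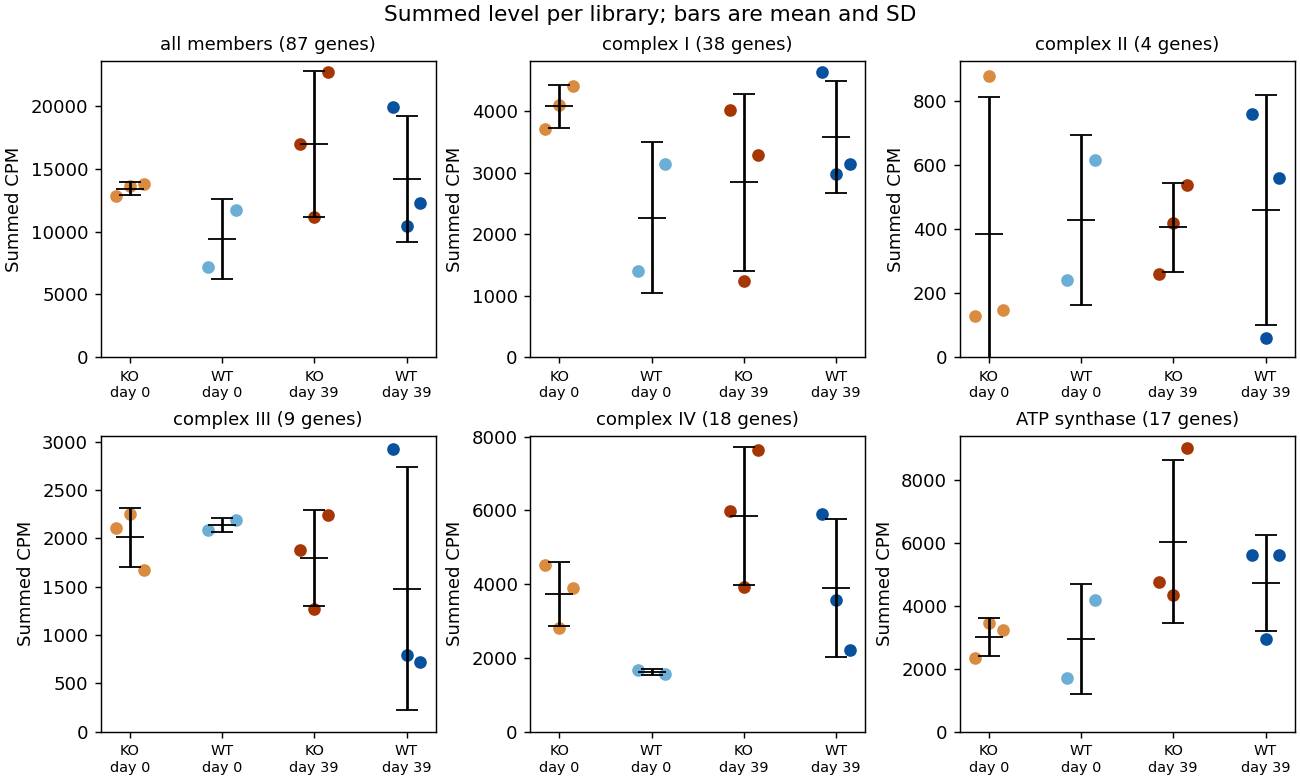
Summed level in CPM (y axis, from 0) of all members and of each complex, by group (x axis); points are libraries, bars are mean and SD, and bars reaching below 0 are cut there. The 2 WT day 0 libraries, at 1670 and 1568 CPM, are the lowest points of the complex IV panel. The KO day 0 points are above both WT day 0 points in the panels of all members, complex I and complex IV, and the 2 day 39 groups overlap in every panel.

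Complex I takes electrons from NADH. Its summed level was 3717, 4109 and 4416 CPM (KO day 0), 1404 and 3136 CPM (WT day 0), 4021, 1242 and 3287 CPM (KO day 39), and 4639, 2981 and 3150 CPM (WT day 39). All 3 KO day 0 libraries were above both WT day 0 libraries, while the groups at day 39 overlapped. Ndufa6, the complex I member with the most counts, had 1, 7494 and 2968 counts (KO day 0), 956 and 5 (WT day 0), 1945, 1576 and 2004 (KO day 39), and 247, 1931 and 2990 (WT day 39). It was nearly absent from 1 library of each day 0 group and present in all 6 day 39 libraries. Ndufa1, a small membrane subunit, was the only complex I member above 3 counts in all 11 libraries, with 210, 463 and 706 counts (KO day 0), 818 and 1729 (WT day 0), 104, 1567 and 432 (KO day 39), and 220, 338 and 1469 (WT day 39). By contrast Ndufs1, which carries iron-sulfur clusters of the core, never exceeded 2 counts, and Ndufab1, the acyl carrier protein, reached 100 counts only in WT day 39 replicate 2 (171 counts).

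Complex II is succinate dehydrogenase, shared with the citric acid cycle. Sdha, its flavoprotein, had 0, 0 and 1 counts (KO day 0), 0 and 2606 (WT day 0), 5, 890 and 3 (KO day 39), and 2072, 328 and 605 (WT day 39). Sdhb, the iron-sulfur subunit, had 14, 6759 and 2104 counts (KO day 0), 0 and 5 (WT day 0), 6, 31 and 623 (KO day 39), and 1, 1 and 2 (WT day 39). The partner subunits were thus high in different libraries: all 3 WT day 39 libraries had Sdha and none had over 2 counts of Sdhb.

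Complex III passes electrons to cytochrome c. Uqcrh, its member with the most counts, had 579, 8488 and 7286 counts (KO day 0), 3 and 2984 (WT day 0), 2626, 1225 and 1445 (KO day 39), and 2673, 1513 and 1160 (WT day 39). Uqcrq, another small subunit, had 3485, 3228 and 2619 counts (KO day 0), 3156 and 3950 (WT day 0), 597, 1215 and 728 (KO day 39), and 568, 376 and 1 (WT day 39). All 5 day 0 counts of Uqcrq were above all 6 day 39 counts, although scaled to CPM the groups overlapped, with 171 CPM in KO day 0 replicate 3, the deepest library, and 240 CPM in KO day 39 replicate 2. Cycs, the carrier itself, was much less even: 0, 863 and 6847 counts (KO day 0), 64 and 0 (WT day 0), 226, 0 and 13 (KO day 39), and 211, 129 and 1 (WT day 39).

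Complex IV, cytochrome c oxidase, had a summed level of 4529, 2812 and 3885 CPM (KO day 0), 1670 and 1568 CPM (WT day 0), 5990, 3922 and 7645 CPM (KO day 39), and 5901, 3578 and 2209 CPM (WT day 39). Both WT day 0 libraries were below the other 9, and at day 39 the 3 libraries highest and the library lowest in complex IV were also those highest and lowest in epithelial markers. Several of its subunits come as a broadly expressed form and a form restricted to muscle, lung, testis or other tissues. Summed over the libraries, the broad form had more counts in every pair. Cox8a had 51761 counts against 2011 for Cox8b, and Cox6a1 had 34957 against 5297 for Cox6a2. Cox8a was counted in every library, with 10530, 599 and 7568 counts (KO day 0), 2918 and 452 (WT day 0), 6820, 4832 and 6205 (KO day 39), and 7659, 1473 and 2705 (WT day 39). Cox8b, its heart and skeletal muscle form, had 2011 counts in KO day 0 replicate 3 and 0 in the other 10 libraries, and Cox8c, a testis form, had 0 in all 11. Cox4i2, the lung form, had 1365 counts in KO day 0 replicate 2 and 0 in the other 10, and Cox4i1, the broad form, had 0 counts in that library and in WT day 0 replicate 1. Cox6b2, a testis form, had 1471 counts in KO day 0 replicate 3 and at most 2 in any other library.

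The muscle form Cox6a2 had 0, 3 and 2597 counts (KO day 0), 0 and 0 (WT day 0), 0, 1044 and 2 (KO day 39), and 8, 654 and 989 (WT day 39), and exceeded its broad counterpart Cox6a1 in KO day 0 replicate 3 and KO day 39 replicate 2. Cox7a1, the muscle form of Cox7a2, reached 100 counts in KO day 39 replicate 2 (334) and WT day 39 replicate 2 (669). Muscle markers were high in 2 of the libraries that held such forms, KO day 0 replicate 3 (Cox8b and Cox6a2) and WT day 39 replicate 2 (Cox6a2 and Cox7a1). They were lower in the others, at 4475 CPM in KO day 39 replicate 2 and 7805 CPM in WT day 39 replicate 3. KO day 0 replicate 2, with 26542 CPM of muscle markers, had no more than 3 counts of Cox6a2, Cox7a1 or Cox8b. The part of muscle RNA in these counts was not tested.

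**Figure D4:**
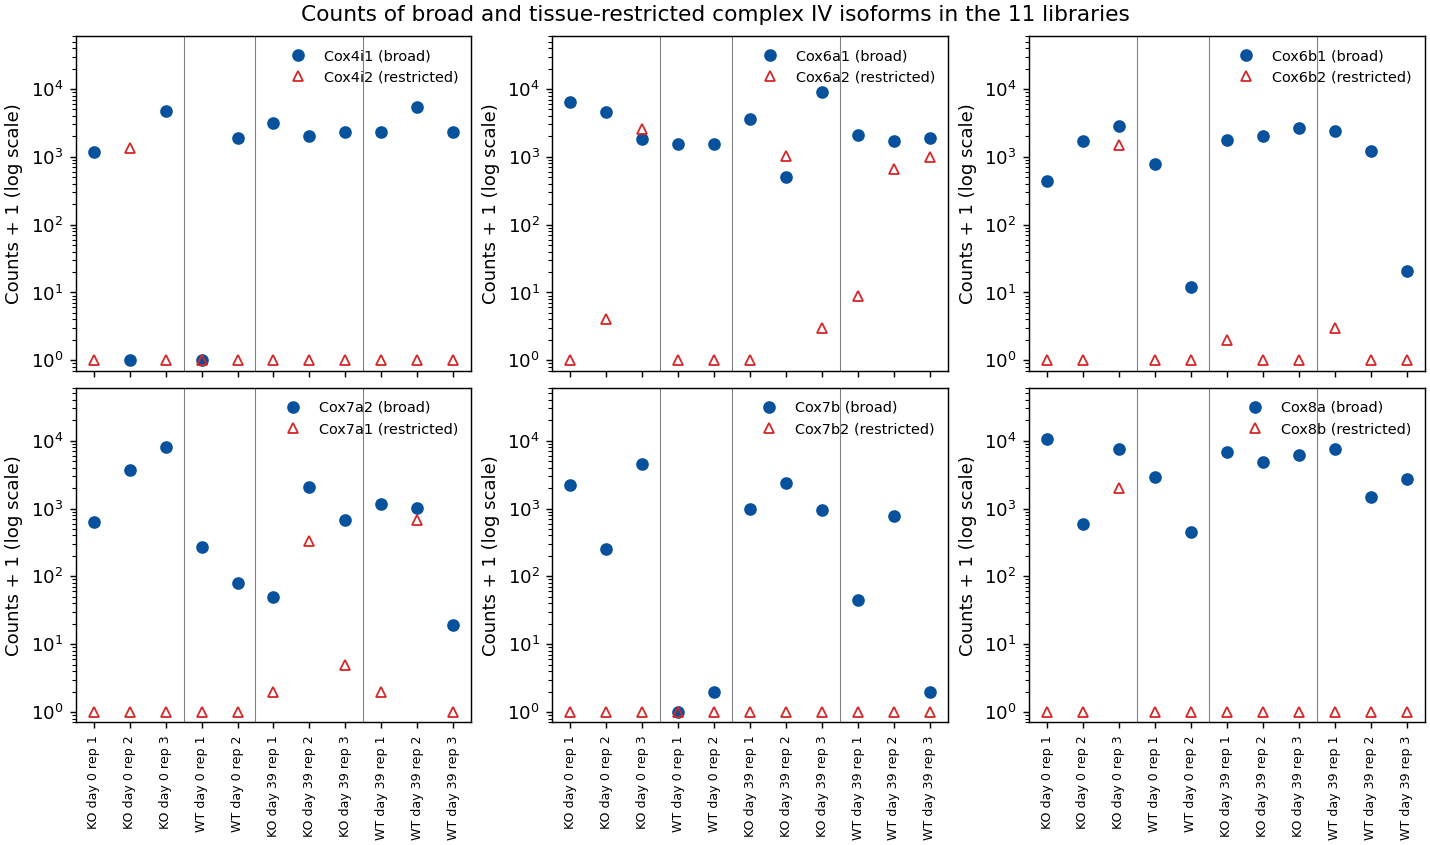
Counts + 1 (log axis) of broad forms (filled circles) and tissue-restricted forms (open triangles) of 6 complex IV subunits in the 11 libraries (x axis, groups divided by lines); a symbol at 1 is a count of 0. Restricted forms reached 100 counts in 0 to 4 libraries and broad forms in 7 to 11, and the triangle stands above the circle in 1 library for Cox4i2 and 2 for Cox6a2.

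ATP synthase turns the proton gradient into ATP. Its c ring is encoded by 3 genes whose mature products are the same, and they were counted unequally. Atp5g3 was the member with the most counts of all, with 1036, 4707 and 5196 counts (KO day 0), 1326 and 513 (WT day 0), 3840, 7145 and 12741 (KO day 39), and 7574, 1773 and 14781 (WT day 39). Atp5g1 had 1 to 1762 counts (median 744) and Atp5g2 had 0 to 975 (median 192). Atp5g1 and Atp5g2 each have 2 near-identical copies elsewhere in the genome (Gm10039 and Gm4660, Gm10175 and Gm10231) and Atp5g3 has none, and how reads shared with copies were counted is not stated, so the difference in counts between the 3 genes is uncertain. Atp5a1, the catalytic head's alpha subunit, had 1149, 770 and 1827 counts (KO day 0), 2185 and 5479 (WT day 0), 3273, 5343 and 5570 (KO day 39), and 2572, 241 and 1675 (WT day 39). Atp5h, Atp5j2 and Atp5l, which belong to the stalk and the membrane part, had medians of 1416, 1031 and 371 counts.

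The comparison of the days asks how macrophage expression differs between the start and day 39 of the DSS course. Over both genotypes none of the 80 tested members passed an adjusted p of 0.05 in edgeR's quasi-likelihood test (background 0.301% of 6987 genes). An unadjusted p under 0.05 was reached by 4 members (background 19.2%), and DESeq2's Wald test called 7 (background 17.4%). The member with the smallest p was Atp5g3. In CPM it stood at 166.5, 605 and 340.1 (KO day 0) and 237 and 121 (WT day 0), against 993, 1412 and 3671 (KO day 39) and 2299, 326 and 3237 (WT day 39). Within each genotype the day 39 levels were all above the day 0 levels, and only WT day 39 replicate 2 lay below the highest day 0 library. The mean was 294 ± 193 CPM (SD, n = 5) at day 0 and 1990 ± 1310 CPM (SD, n = 6) at day 39, a fitted log2 difference of 2.95 (SE 0.90, edgeR adjusted p 0.118). The epithelial markers given above moved the same way between the days, and their part in this difference was not tested.

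Of the 80 members, 57 (71.3%, against 59.8% of all tested genes) had a fitted log2 fold change above 0 between the days, with a median of 0.90, beside 0.76 over all tested genes. With every group mean under 3 counts per library set to that floor the medians were 0.78 and 0.44. No member separated all day 39 libraries from all day 0 libraries in CPM (background 1.6% higher and 0.157% lower). With libraries scaled by size only, 1 member did, Cox4i1, which was higher at day 39 (background 1.63% higher and 0.2% lower). In an exact permutation test of log2(CPM + 1) between the 6 day 39 and the 5 day 0 libraries, 4 members had an unadjusted two-sided p under 0.05 (6.13% of all genes did), namely Cox4i1, Atp5g3, Ndufa13 and Uqcrq, and the smallest adjusted p was 0.438. Cox4i1 stood at 189, 0 and 312 CPM (KO day 0) and 0 and 442 CPM (WT day 0), and at 813, 399 and 674 CPM (KO day 39) and 714, 1012 and 517 CPM (WT day 39). Its single overlap was KO day 39 replicate 2 below WT day 0 replicate 2, and edgeR gave it a fitted log2 difference of 1.84 ± 1.42 (SE) with an adjusted p of 0.490.

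**Figure D5:**
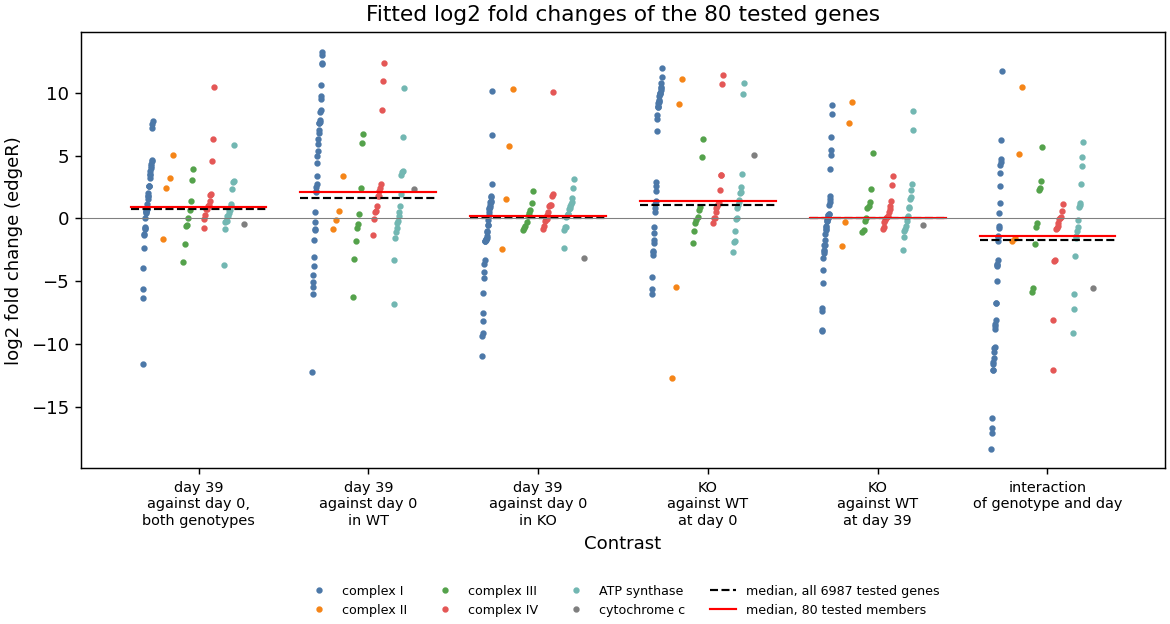
Fitted log2 fold changes (y axis, edgeR) of the 80 tested genes in the 6 contrasts (x axis), each point a gene coloured by complex, with the median of the members (red) and of all 6987 tested genes (dashed). The members' median differs from that of all genes by less than 0.5 in each contrast. The complex I medians are 4.95 for the days in WT, -1.10 for the days in KO and 7.89 for the genotypes at day 0.

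In WT mice, no member was called between the days by edgeR (background 0.0143%), 2 had an unadjusted p under 0.05 (background 6.68%) and DESeq2 called 12 (background 16.9%). Without overlap in CPM, 19 members were higher at day 39 and 3 lower (background 12.7% and 4.72%). Of 15 epithelial markers 13 had a fitted log2 fold change above 0 in this contrast and 2 below. In edgeR 3 of them had an unadjusted p under 0.05, and their part in the members' values was not tested. Ndufa13, a complex I subunit also known as GRIM-19, was at 0 in both day 0 libraries and had 549, 925 and 876 counts at day 39, where it stood at 176 ± 13.7 CPM (SD, n = 3), at least 284-fold above a floor of 3 counts per library. Ndufb7 was also at 0 in both and had 11, 1103 and 610 counts at day 39. The muscle form Cox6a2 was likewise at 0 in both day 0 libraries and had 8, 654 and 989 counts at day 39. Both genes were at least 182-fold higher, through day 39 replicates 2 and 3. The edgeR adjusted p of all 3 was 0.414, with 2 libraries at day 0. The 3 members lower at day 39 were Ndufb4 (1111 and 124 counts, then 3, 78 and 0), with a fitted log2 difference of -4.48 (SE 4.40, edgeR adjusted p 0.607), Uqcrq with -3.21 ± 2.51 and 0.483, and Cyc1, the cytochrome c1 of complex III, with -0.78 ± 3.98 and 0.982. The median of all members was 2.11 beside 1.64 over all genes, and that of complex I was 4.95; at the floor of 3 counts these were 1.84, 0.57 and 3.48.

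In KO mice, edgeR again called no member between the days (background 0.157%), 4 had an unadjusted p under 0.05 (background 18.2%) and DESeq2 called 2 (background 16.4%). Without overlap in CPM, 6 members were higher at day 39 and 1 lower (background 8.07% and 3.21%). Markers of other cell types moved in this contrast too: of 17 tested skeletal muscle markers 14 were below 0 and edgeR called 2 lower at day 39, Pvalb and Tnnc2, and all 15 epithelial markers were above 0, 7 with an unadjusted p under 0.05. The part of either in the members' values was not tested. Atp5a1 stood at 185, 99.0 and 119.6 CPM at day 0 and at 846, 1056 and 1605 CPM at day 39, with a fitted log2 difference of 3.12 (SE 1.64, edgeR adjusted p 0.283). Sdha had 1 count over the 3 day 0 libraries, and its day 39 mean was 1738 times the day 0 level, with a 95% counting interval of 312 to 68630 from the summed counts, or 167 times with the day 0 level set to the floor of 3 counts per library; the day 39 level itself rests on replicate 2. Cox7a1 was at 0 in all 3 day 0 libraries and at least 63.3-fold higher at day 39, again through replicate 2 (334 counts, with 1 and 4 in the others). The other members above were Atp5g3, with a fitted log2 difference of 2.45 (SE 1.13, edgeR adjusted p 0.273), Cox4i1 and Cox6b1. Atp5e, the epsilon subunit of ATP synthase, was the member below, whose day 0 counts of 3480, 1417 and 3417 compare with 10, 0 and 632 at day 39, a fitted log2 difference of -2.39 (SE 2.91, edgeR adjusted p 0.781). The members' median log2 fold change was 0.17 beside 0 over all genes, and -0.08 beside -0.21 when libraries were scaled by their totals alone. The median of complex I was -1.10 (-0.97 at the floor of 3 counts).

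The comparison of the genotypes sets libraries labelled KO against libraries labelled WT, and the Ptger4 counts given above do not show the loss of EP4 in them. At day 0, no member was called by edgeR (background 0.0143%), 1 had an unadjusted p under 0.05 (background 7.99%) and DESeq2 called 15 (background 17.8%). Without overlap in CPM, 13 members were higher in KO and 7 lower (background 6.73% and 5.25%). This comparison shares the 2 WT day 0 libraries with the day comparison in WT, so its values are not independent of that one. KO day 0 replicates 2 and 3 had the highest muscle marker levels and the lowest macrophage marker levels (8792 and 6605 CPM), and their part in the values of single genes was not tested. Cox7b had 2223, 249 and 4508 counts in KO and 0 and 1 in WT, a ratio of 2245 with a 95% counting interval of 403 to 88666 from the summed counts, or 367 at the floor of 3 counts per library. Ndufb10 had 24, 1738 and 3673 counts in KO and 1 and 0 in WT, a ratio of 1534 with an interval of 275 to 60604, or 251 at that floor. Ndufb7 had 946, 1 and 1 counts in KO and 0 and 0 in WT, so its level, at least 81.6-fold higher, rests on 1 library. The edgeR adjusted p of each was 0.381. Lower in KO were Atp5a1, at 185, 99.0 and 119.6 CPM against 390 and 1291 CPM (log2 fold change -2.64 ± 1.70 (SE), edgeR adjusted p 0.387), Ndufa1, at 33.7, 59.5 and 46.2 CPM against 146 and 407 CPM (-2.57 ± 3.53, adjusted p 0.803), and Cyc1 (-1.95 ± 4.0, adjusted p 0.908). The median over members was 1.42 beside 1.08 over all genes, both with and without the floor for the members (all genes 0.52 at the floor), and that of complex I was 7.89, or 5.31 at the floor.

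At day 39, no member was called between the genotypes by edgeR (background 0.0286%), 1 had an unadjusted p under 0.05 (background 7.28%) and DESeq2 called 3 (background 7.94%). Without overlap in CPM, 7 members were higher in KO and 4 lower (background 3.41% and 3.99%). The only genes of the 6987 that edgeR called here were 2 skeletal muscle markers, Pvalb and Tnnc2, both lower in KO, and the part of muscle RNA in the members' values was not tested. Sdhb had 6, 31 and 623 counts in KO and 1, 1 and 2 in WT. Its ratio was 207 with a counting interval of 81.0 to 761, or 88.3 at the floor of 3 counts per library. Its KO level rests on replicate 3. Uqcrc2, a core protein of complex III, had 904, 117 and 962 counts in KO and 45, 0 and 2 in WT, with a fitted log2 difference of 5.24 ± 3.41 (SE). Cox5a had 633, 1684 and 1229 counts in KO and 37, 388 and 4 in WT, with a fitted log2 difference of 3.35 ± 3.17 (SE). Lower in KO were Ndufs3, with 0, 0 and 1 counts against 1, 727 and 116, Ndufb7, with 3, 1 and 5 against 11, 1103 and 610, and Ndufb3, with 133, 0 and 7 against 279, 1590 and 1157. Their log2 fold changes were -8.86 ± 5.38, -7.10 ± 4.97 and -4.11 ± 3.97 (SE). The smallest edgeR adjusted p of any member was 0.491. The members' median was 0.03 beside 0 over all genes, and -0.12 when scaled by totals alone.

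The test of whether the day difference itself differed between the genotypes called no member in edgeR and no gene of the 6987 (background 0%), while 4 members and 14.4% of all genes had an unadjusted p under 0.05 and DESeq2 called 12 members (background 13.4%). The members' median was -1.44 beside -1.69 over all genes. Complex I had a median of -5.01 (-5.93 at the floor), with 9 of 37 members above 0 (24.3%, against 38.4% of all tested genes). The smallest edgeR adjusted p over all members was 0.328.

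Among DESeq2's calls between pairs of groups, all 2 for the days in KO, all 15 for the genotypes at day 0, all 3 at day 39 and 11 of the 12 for the days in WT were genes at 10 counts or fewer in every library of 1 of the compared groups. The same held for 96.9% to 98.3% of all genes that DESeq2 called in these 4 contrasts, so it is no trait of the members. The members called so include Ndufa13, Ndufb7, Ndufb10 and Cox7b, described above. The exception was Uqcrc2, which DESeq2 called lower at day 39 in WT, with 4119 and 3 counts at day 0.

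The genes around oxidative phosphorylation were read from the same fit. None of the 13 mitochondrially encoded subunits was listed under its mt- symbol among the entries counted, so they could not be read here. Of 48 listed assembly factors 18 passed the filter, of 18 citric acid cycle genes 15, of 16 regulators of mitochondrial gene expression 6, and of 13 inhibitors, carriers and related genes 13; Ndufa4l2 and Cox7a2l, which that list also held, are members and are left out here. edgeR called none of these in any of the 6 contrasts, where 0 to 5 genes of a list had an unadjusted p under 0.05 and DESeq2 called 0 to 3 (backgrounds of 6.68% to 19.2% and of 7.94% to 17.8%). Between the days over both genotypes their medians were 0.42 for assembly factors, 0.11 for the cycle, -1.27 for the regulators and 0.44 for the inhibitors and carriers, beside 0.76 over all tested genes, and unadjusted p-values under 0.05 numbered 3, 0, 2 and 1 (background 19.2%). The non-members whose log2 CPM followed the summed member level most closely over the 11 libraries were Wdr70 (Pearson r 0.83, Spearman rho 0.91, r 0.92 without the 2 farthest libraries), Slc26a3 (0.81, 0.73, 0.90) and Slc35c2 (0.81, 0.84, 0.87); these were picked out of all tested genes, and they share library scaling with the sum. Slc26a3 is also 1 of the 15 epithelial markers, with 0 counts in all 5 day 0 libraries and 290, 0 and 700 (KO) and 1519, 0 and 1 (WT) at day 39.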

How the data were processed

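As deposited, each of the 11 libraries is a list of gene symbols with raw read counts that the authors did not normalize. Libraries were made from Trizol RNA with a Lexogen QuantSeq kit, per the labels' protocols, which primes at the poly(A) tail, so a transcript gives reads near its 3′ end whatever its length. Per the submitters' processing notes, Bowtie2, edgeR and the build hg19 were named, with no roles and no versions; hg19 is a human build while the symbols are those of mouse, and the build, annotation and strand setting behind the counts are not given in the sources used here. Titles give day 39 where the file names give 35, and WT day 0 library 2 has file number 3; titles were used.

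Members and gene lists were chosen with earlier results of these data known. The test was edgeR 4.0.16 (R 4.3.3) with filterByExpr (6987 genes tested, 16295 not), TMM, robust quasi-likelihood, 1 coefficient per group, all 11 libraries, Benjamini-Hochberg over all tested genes, threshold 0.05. The common biological coefficient of variation was 2.48. The SE beside an edgeR log2 value is not fitted. It is the absolute log2 value divided by the square root of the quasi-likelihood F. CPM is counts over the TMM-scaled library size of tested genes. Not tested were Atp5s, Ndufs1, Cox4i2, Cox6b2, Cox7b2, Cox8b and Cox8c. Alternatives were DESeq2 1.42.0, other scalings, filters and detection minimums, the replicate number as a block, each library left out, an exact permutation test, and, chosen after seeing the data, leaving out the 2 libraries highest in muscle markers or the 4 genes that are not standard subunits. The test was checked on simulated counts less variable than these libraries; it recovered every changed gene at the lower of the spreads simulated, but at the higher it missed all of the smaller changes and part of the larger ones, so a member without a call is not shown to be unchanged.

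Named are members called by edgeR (none), those above 3 counts in all libraries, up to 3 per direction with the largest change among members averaging at least 10 CPM whose groups do not overlap, the member with the most counts per complex, isoform pairs and Cycs; other names were chosen after their values were seen. Intervals and floors cover counting error only. Of the 87 members, 26 have another gene matching 95% or more over at least 100 of their last 300 bases (GENCODE M21), among them Cox6a1, Cox7c, Atp5h and Atp5l, 11 overlap a gene on the same strand (Ndufa13 with Yjefn3, Cox4i1 with Gm20388) and 29 a gene on the other strand (Cox6a2 with Itgad, Atp5a1 with Haus1, Sdha with Gm16125); their counts are uncertain, since the handling of shared reads is not stated.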

Additional observations from a re-analysis of the deposited data

Results flagged for a closer look

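Atp5e, the epsilon subunit of ATP synthase, went opposite ways in the genotypes. Every WT library at day 39 (327, 605 and 111.3 CPM) was above both WT day 0 libraries (52.9 and 1.89 CPM), and every KO library at day 39 (2.59, 0 and 182.1 CPM) was below all 3 KO day 0 libraries (559, 182.2 and 224 CPM). The highest KO day 39 library differed from the lowest KO day 0 library by less than 1 CPM. The interaction of genotype and day had a log2 value of -6.05 ± 4.69 (SE) with an edgeR adjusted p of 0.543, so the difference did not pass the test. Muscle markers were high in KO day 0 replicates 2 and 3, and their part in this pattern was not tested.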

How the results depend on the processing

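edgeR called 0 of the tested members in each of the 6 contrasts, and this count stayed at 0 with DESeq2's size factors, with library size only, without the filter, with genes of a mean of 1000 counts or more, in fits of the compared groups alone where these were run, without the 2 libraries highest in muscle markers, with the exact permutation test of the days, and with each library left out (0 to 0). A count already at 0 cannot fall, and the designs with fewer libraries say nothing about stability: leaving out a WT day 0 library, or both muscle-high libraries, leaves 1 library in a group, which is then assumed to vary like the other groups, and the permutation test called 0 of all 6987 genes, with 0.00216 the smallest p it can give. DESeq2's Wald test called 7 members for the days over both genotypes, 12 in WT, 2 in KO, 15 for the genotypes at day 0, 3 at day 39 and 12 for the interaction; the cause was not tested. With the replicate number as a block, edgeR called 0 members in every contrast; the numbers do not pair the libraries, since same-numbered libraries of different groups had correlations of deviations between -0.0137 and 0.0697 (15 pairs) and others between -0.0697 and 0.0457 (30 pairs). The count of all genes called for the days over both genotypes, 21, was 9 with library size only, 2 without the filter, 0 at a mean of 1000 counts or more, 7 with the replicate block, 9 without the 2 muscle-high libraries and 1 to 62 with a library left out (1 without either WT day 0 replicate, 62 without KO day 0 replicate 1). For the days in KO the 11 genes became 0 without the filter, 1 at a mean of 1000 counts or more, 5 when fitted on the 2 groups alone, 2 without the muscle-high libraries and 6 to 15 with a library left out. The other contrasts, with 0 to 2 genes in edgeR, gave 0 to 8 in edgeR's alternatives. DESeq2's Wald test called 1215 genes for the days over both genotypes, 1178 in WT, 1144 in KO, 1241 for the genotypes at day 0, 555 at day 39 and 934 for the interaction.

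Summed member level in KO day 0 was 14383 CPM with library size only, outside the small spread of that group. With a library left out it was 13226 to 13719 CPM (KO day 0), 7139 to 11684 (WT day 0), 14076 to 19854 (KO day 39) and 11328 to 16077 (WT day 39). Members counted, at a minimum of 1000 in place of 100, averaged 16 (WT day 0), 22.7 (KO day 39) and 18.7 (WT day 39), and at a minimum of 10 KO day 39 had 51.7. With a library left out these means were 42 to 55.5 (KO day 0), 27 to 35 (WT day 0), 43.5 to 47 (KO day 39) and 41 to 50 (WT day 39). Of 275 log2 fold changes of named members under alternatives, none changed direction, 266 stayed on their side of the threshold and 9 passed it, all under DESeq2. A value at 0 counts allows up to 3 counts at that library's depth.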
